A study of Mus musculus with 6 samples.

Results

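The 9 genes described here act in the response of cortical neurons to the secreted protein Reelin and in radial migration: Dab1, Vldlr, Lrp8, Cxcr4, Pafah1b1, Ndel1, Nde1, Rnd2 and Rnd3. They were taken by name, each matched 1 of the 22544 gene rows of the deposited table, and all 9 had been tested by the authors. The samples were GFP-positive neurons of the upper layers of the cerebral cortex, purified by cell sorting from Swiss Webster mice at postnatal day 3 (P3) or postnatal day 5 (P5). Each age had 3 biological replicates, and no treatment or mutant allele is named for either age in the sources used here. How GFP was brought into the cells, and how many animals went into a sample, is not given in the sources used here. The comparison asks how these genes stand at P5 against P3, when upper-layer neurons are completing their migration.

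Reelin is released near the brain surface, chiefly by Cajal-Retzius cells, and binds the receptors encoded by Vldlr and Lrp8 on migrating neurons. The receptors bind the adaptor protein Dab1, which Src family kinases phosphorylate and a Cul5 ubiquitin ligase later removes. Downstream, adhesion, actin and microtubules are adjusted so that a neuron stops at its place and later-born neurons pass earlier ones. Movement of the cell body itself depends on the motor dynein with its regulators Lis1 (the product of Pafah1b1), Nde1 and Ndel1. Rnd2 and Rnd3 are small GTPases that hold RhoA signalling down during migration. Cxcr4 is the receptor for the chemokine Cxcl12 and guides several kinds of migrating cells in the cortex.

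Expression is given as FPKM, a count of sequenced fragments corrected for transcript length and sequencing depth. The authors' deposited table holds 1 FPKM per gene and age, pooled over the replicates, so there is no value per sample and no spread around a level. Ratios compare P5 with P3 as log2 values. Their standard errors (SE) were derived by dividing a ratio by its test statistic in the authors' deposited table. Counts are not part of the table, so the depth behind a value is unknown. In bulk RNA, fewer cells that express a gene and less of its RNA per cell cannot be told apart.

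The 9 genes did not share a direction, and Cxcr4 was the member that differed most between the ages. In FPKM, 4 members were lower at P5 (Cxcr4, Lrp8, Pafah1b1 and Dab1) and 5 were higher (Ndel1, Rnd3, Vldlr, Nde1 and Rnd2). Their median log2 ratio was 0.15, against 0.13 over all tested genes with FPKM above 0 at both ages. Of the latter, genes with a mean FPKM of 10 to 50, a range chosen after the values were seen, had a median of -0.03. Among the 12865 tested genes, 56.8% were higher at P5. None of the 9 genes passed the authors' Cuffdiff test at q = 0.05, where 0% of all tested genes were called. At an unadjusted p under 0.05, 1 member was lower at P5, Cxcr4, against 0.179% of all tested genes. No member was higher at that threshold, against 0.591% of all tested genes. The SE of the 9 ratios lay between 0.93 and 1.98, with a median of 1.23, so a doubling of any member was smaller than 2 SE.

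**Figure D1:**
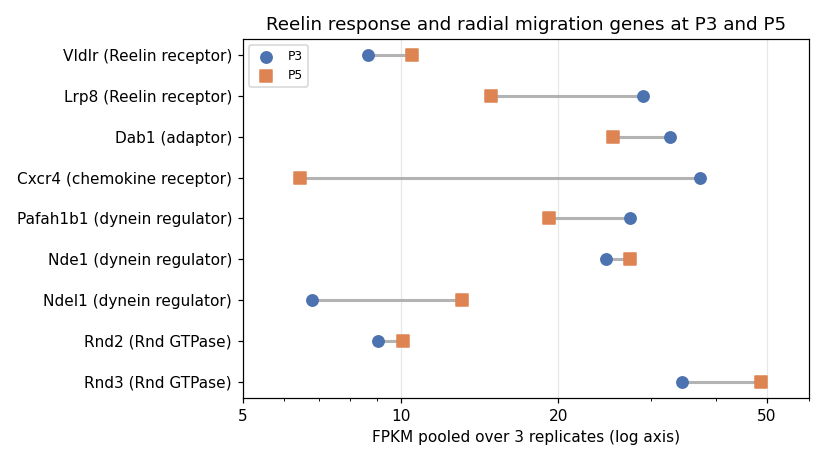
Pooled FPKM of the 9 genes (log axis) at P3 (circles) and P5 (squares), with a grey line joining the ages. Cxcr4 spans the widest gap, from 37.2 at P3 to 6.42 at P5, while Nde1 and Rnd2 are nearly level.

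All 9 genes were well expressed. At P3 the order from the highest FPKM was Cxcr4, Rnd3, Dab1, Lrp8, Pafah1b1, Nde1, Rnd2, Vldlr and Ndel1, and at P5 it was Rnd3, Nde1, Dab1, Pafah1b1, Lrp8, Ndel1, Vldlr, Rnd2 and Cxcr4. Cxcr4 thus stood at rank 1 at P3 and at rank 9 at P5, whereas Dab1 stood at rank 3 at each age. The lowest member at P3, Ndel1 at 6.79 FPKM, lay above 75.9% of all rows, and the lowest at P5, Cxcr4, lay above 73.3%. Summed over the 9 genes, FPKM was 210 at P3 and 176 at P5. Since no spread of a level is given, neighbours in these orders cannot be told apart.

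The Reelin receptors differed in level at P3 and were closer at P5. Lrp8 (mm9 chromosome 4, 107474864 to 107549445), also known as ApoER2, stood at 29.0 FPKM for P3 against 14.9 for P5. Its log2 ratio was -0.96 (SE 0.98, 95% interval -2.88 to 0.97), with p = 0.33 in the authors' deposited table. Vldlr (mm9 chromosome 19, 27291510 to 27328721), the very low density lipoprotein receptor, had 8.68 and 10.5 FPKM, a log2 ratio of 0.27 (SE 1.01, interval -1.72 to 2.26). Lrp8 was therefore 3.34 times as high as Vldlr at P3 and 1.43 times at P5, and the sum of both went from 37.7 to 25.4 FPKM. The difference of the log2 ratios, Lrp8 minus Vldlr, was -1.23 with an interval of -3.99 to 1.54. That interval holds 0, so a shift in balance between the receptors was not established at this error.

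Dab1 (mm9 chromosome 4, 104040165 to 104417447), the adaptor on which the Reelin signal depends, stood at 32.6 FPKM for P3 against 25.4 for P5. The log2 ratio was -0.36, and its SE of 1.98 was the widest among the 9 genes. That SE was wider than the one of 72.1% of tested genes above 0 at both ages. The interval of the Dab1 ratio ran from -4.24 to 3.52, so differences of several fold in either direction lay within it.

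Cxcr4 (mm9 chromosome 1, 130484776 to 130488876) stood at 37.2 FPKM for P3 against 6.42 for P5, a level 5.8 times as high at the younger age. The log2 ratio was -2.54 (SE 1.29, interval -5.06 to -0.01), with p = 0.049 and q = 0.999988 in the authors' deposited table. Of the 12313 tested genes above 0 at both ages, 178 had a lower ratio, which is 1.45%. Among the 23 genes lower at P5 at an unadjusted p under 0.05, 21 had a smaller p than Cxcr4. Of 3341 tested genes above 0 at both ages with a mean FPKM of 10 to 50, a range chosen after the values were seen, 6 had a ratio at or below that of Cxcr4, itself included. Cxcr4 was also the only member with a log2 ratio of -1 or less, a range that held 10% of those 12313 genes. No member had a log2 ratio of 1 or more, where 23.9% of them lay.

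The distribution of the authors' test statistic was narrower than a standard normal. Its robust spread was 0.66 over tested genes above 0 at both ages. When the statistic was divided by that spread, Cxcr4 had an unadjusted p of 0.003 and an adjusted p of 0.39 over all tested genes. By that rule 0 of the 9 genes and 0.0155% of all tested genes were called at 0.05.

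**Figure D2:**
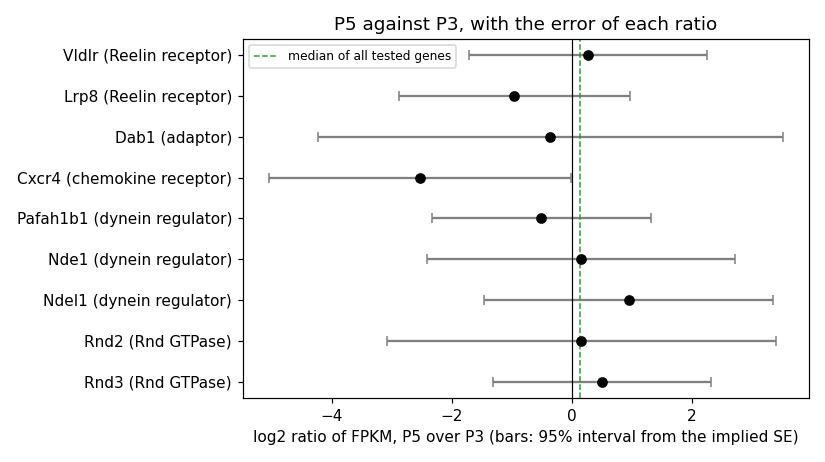
Log2 ratio of FPKM, P5 over P3, for each of the 9 genes (points) with the 95% interval from its implied SE (bars). The interval of Cxcr4 ends at -0.01 and the other 8 intervals hold 0. Those 8 also hold the median of tested genes above 0 at both ages (dashed line).

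Beside the lower Cxcr4 value, markers of glia, vessels and deep-layer neurons mostly had higher FPKM at P5. All 11 tested microglial markers were higher, with a median log2 ratio of 4.92, and the list summed to 42.6 FPKM at P3 and 187 at P5. All 10 oligodendrocyte markers were higher (median 2.35, sum 124 and 260 FPKM), with Mog and Mag listed at 0 at P3. Of the astrocyte markers 9 of 10 were higher (median 1.43, sum 2376 and 3024 FPKM). Endothelial and mural markers were higher in 8 of 10 tested, with a median of 2.64. Deep-layer neuron markers were higher in 8 of 10 (median 1.29, sum 71.8 and 163 FPKM). At an unadjusted p under 0.05 in the authors' deposited table, 2 deep-layer, 2 microglial, 2 astrocyte and 2 endothelial and mural markers were higher. So was 1 oligodendrocyte marker, and over all tested genes the share was 0.591%. Other lists were mixed. Interneuron markers were higher in 6 of 10 tested (median 0.30, sum 274 and 529 FPKM), and Npy alone held 155 and 356 of these sums. Of 7 Cajal-Retzius markers, Trp73, Lhx5, Lhx1 and Ebf2 were listed at 0 at P3, had at most 0.307 FPKM at P5 and were not tested. Of the 3 tested ones, Reln (3.40 and 5.11 FPKM) and Nhlh2 (0.417 and 2.46) were higher at P5 and Calb2 (18.6 and 8.83) was lower. Radial glia markers were higher in 2 of 8, with a median of -0.47, and Fabp7 alone held 5388 and 4272 of their summed 5565 and 4398 FPKM. Markers of upper-layer neurons, the cell type sorted for, were higher in 5 of 11 (median -0.37, sum 505 and 496 FPKM), and none was listed at 0. At both ages that sum was smaller than the sums of the astrocyte and radial glia lists. The lists hold different genes, so their sums do not compare the amounts of these cell types. The purity of the sorted cells was not tested. The part of these cell types in the Cxcr4 difference was not tested.

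The dynein regulators had no common direction. Pafah1b1 (mm9 chromosome 11, 74487451 to 74537886), whose product Lis1 keeps dynein engaged with its load, stood at 27.4 FPKM for P3 against 19.2 for P5 (log2 ratio -0.51, SE 0.93). Nde1 (mm9 chromosome 16, 14163368 to 14193016), a scaffold that brings Lis1 to dynein, had 24.6 and 27.4 FPKM, a log2 ratio of 0.15 (SE 1.32). Its paralog Ndel1 (mm9 chromosome 11, 68634949 to 68666633) had 6.79 and 13.1 FPKM, the highest ratio of the 9 genes at 0.95 (SE 1.23, interval -1.47 to 3.36). In the authors' deposited table p was 0.58 for Pafah1b1, 0.91 for Nde1 and 0.44 for Ndel1. Summed over these 3 genes, FPKM was 58.8 at P3 and 59.7 at P5. Nde1 was 3.63 times as high as Ndel1 at P3 and 2.09 times at P5, and the difference of their log2 ratios, Ndel1 minus Nde1, was 0.79 with an interval of -2.74 to 4.33.

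In FPKM, Rnd3 and Rnd2 were a little higher at P5, each with a log2 ratio smaller than its SE. Rnd3 (mm9 chromosome 2, 50985959 to 51004631) stood at 34.4 FPKM for P3 against 48.8 for P5, the highest level of the 9 genes at P5 (log2 ratio 0.51, SE 0.93, p = 0.58 in the authors' deposited table). Rnd2 (mm9 chromosome 11, 101329652 to 101332620) had 9.07 and 10.1 FPKM, a log2 ratio of 0.15 (SE 1.66). Rnd3 was 3.79 times as high as Rnd2 at P3 and 4.83 times at P5. The difference of the ratios, Rnd3 minus Rnd2, was 0.35 with an interval of -3.37 to 4.07. Rnd1, the remaining gene of the family, was at 2.79 and 12.7 FPKM (log2 ratio 2.18, SE 1.51, p = 0.15 in the authors' deposited table). In all, 3 pairs of related genes were compared, and each interval of a difference held 0.

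**Figure D3:**
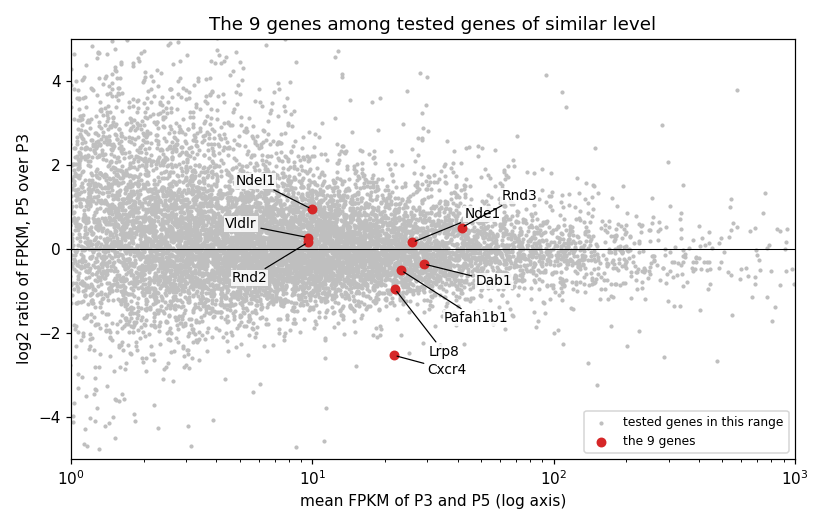
Log2 ratio of FPKM, P5 over P3, against the mean FPKM of both ages (log axis) for tested genes in the plotted range (grey) and the 9 genes (red). Cxcr4 lies at the lower edge of the genes of its level and the other 8 lie within their bulk.

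Related genes can share reads, so the transcripts of each pair were compared. The longest identical stretch between coding transcripts of GENCODE M21 was 19 bases for Lrp8 and Vldlr, 18 for Ndel1 and Nde1 and 14 for Rnd3 and Rnd2. The stretches are shown because they bound how far a read of 1 gene can match its relative without a mismatch.
Lrp8 and Vldlr: cacgagttccagtgcagca
Ndel1 and Nde1: gagttccaggaaggaagc
Rnd3 and Rnd2: acggtgtttgagaa
Read length is not given in the sources used here. No other row of the deposited table overlaps the locus of any of the 9 genes.

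Upstream sequence is shown for the members at the ends of the comparison: Cxcr4 with the lowest ratio, Ndel1 with the highest, and Rnd3 with the highest FPKM at P5. Each line holds the 150 bases before the RefSeq start site (build GRCm38.p6, minus strand, 5′ to 3′), with motif matches on either strand in capitals. The letters searched were GGGCGG for the GC box, which the factor Sp1 binds. For the TATA box they were TATAAA.
Cxcr4, chr1:128592300-128592449: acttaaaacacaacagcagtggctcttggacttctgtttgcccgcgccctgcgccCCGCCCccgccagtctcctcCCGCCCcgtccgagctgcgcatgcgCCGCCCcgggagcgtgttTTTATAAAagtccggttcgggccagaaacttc
Ndel1, chr11:68853136-68853285: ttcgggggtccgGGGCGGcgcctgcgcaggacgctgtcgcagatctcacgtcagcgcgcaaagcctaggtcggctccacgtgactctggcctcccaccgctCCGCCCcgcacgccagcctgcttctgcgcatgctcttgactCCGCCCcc
Rnd3, chr2:51149112-51149261: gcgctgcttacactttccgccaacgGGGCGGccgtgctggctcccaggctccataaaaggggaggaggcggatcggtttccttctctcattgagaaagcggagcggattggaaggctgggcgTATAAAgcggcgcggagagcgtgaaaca
The Cxcr4 window held 3 GC boxes and a TATA box matched on both strands as 2 overlapping hits, the Ndel1 window 3 GC boxes and no TATA box, and the Rnd3 window 1 of each. Over all 32851 promoters of the table, 28.6% of windows of this length held GGGCGG and 7.57% held TATAAA. These are matches of letters, and the series measured no binding or promoter activity. Of the 9 members, 8 had an entry in the promoter table.

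Other genes of these pathways were taken from a list of 70 genes by role, of which 69 were in the table and 63 had been tested. None passed the authors' test at q = 0.05, and none had an unadjusted p under 0.05. Of the 63, 30 were higher and 33 lower at P5. Their median log2 ratio was -0.09, against 0.13 over all tested genes above 0 at both ages. Levels differed: median FPKM was 15.2 at P3 and 14.3 at P5 for the 69 genes, against 4.9 and 5.59 over all tested genes. Tested genes above 0 at both ages with a mean FPKM of 10 to 50 had a median log2 ratio of -0.03. In that range 51.4% were lower at P5. The pathway median lay nearer to the median of that range than to the one over all tested genes above 0 at both ages. A log2 ratio of 1 or more was found for 8 of the 63 (12.7%), against 23.9% of all tested genes above 0 at both ages. A ratio of -1 or less was found for 5 (7.94%), against 10%. These shares were not compared at matched level.

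**Figure D4:**
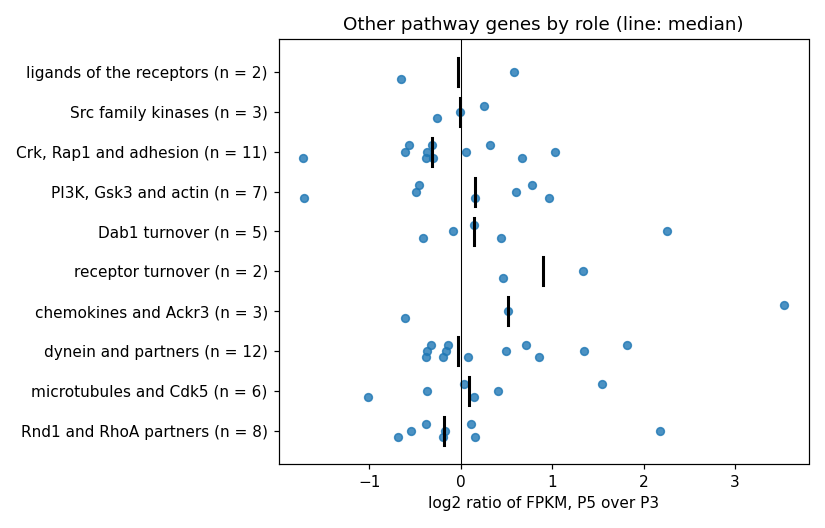
Log2 ratio of FPKM, P5 over P3, of other tested pathway genes by role (points) with the median of each role (black line). The points of most roles lie on both sides of 0, and Cxcl12 lies farthest from it, at 3.54. Transcription factor genes are not plotted.

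Among ligands, Reln, which encodes Reelin, stood at 3.40 FPKM for P3 against 5.11 for P5, and Thbs1, a further ligand of these receptors, at 2.73 and 1.74. The kinase Fyn, which phosphorylates Dab1, had 48.0 and 47.8 FPKM, and its relative Yes1 had 11.1 and 9.32. Fyn was thus almost equal at the 2 ages (log2 ratio -0.01, SE 0.89). Of 5 genes that end the Dab1 signal 3 were higher at P5, and the most abundant were Cul5 at 47.8 and 44.9 FPKM and its partner Rnf7 at 28.9 and 21.8. In receptor turnover, the sorting protein gene Snx17 was at 37.1 and 51.0 FPKM and the ligase gene Mylip at 2 and 5.05.

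Branches below Dab1 were mixed. In the Crk and Rap1 branch, which acts on adhesion, 4 of 11 genes were higher at P5, with the small GTPase gene Rap1b at 40.5 and 42.1 FPKM and the integrin gene Itgb1 at 28.7 and 45.6. In the PI3K and Gsk3 branch 4 of 7 were higher. Mapt, which encodes the microtubule protein tau, had 107 and 183 FPKM, and Gsk3b, whose product phosphorylates tau, had 1134 and 808. Gsk3b shares its locus with another row of the table and its SE of 3.55 was the widest of the 63 genes. Nck2, an adaptor that binds phosphorylated Dab1, stood at 132 FPKM for P3 against 40.6 for P5. Its log2 ratio was -1.71 (SE 0.94), and its p of 0.068 in the authors' deposited table was the lowest of the 63, for which it was chosen after its values were seen.

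Of the partners of Cxcr4, 2 had higher FPKM at P5 and 1 lower. Its ligand gene Cxcl12 stood at 2.27 FPKM for P3 against 26.3 for P5 (log2 ratio 3.54, SE 2.27, p = 0.12 in the authors' deposited table). Ackr3, a second Cxcl12 receptor that removes the ligand, had 6.27 and 4.09 FPKM, and Cxcl14 had 7.06 and 10.1. Vessels and meninges are among the sources of Cxcl12. Of 10 tested endothelial and mural markers 8 were higher at P5, and their sum was 950 and 1014 FPKM, of which Rgs5 alone held 911 and 905. The part of such cells in the Cxcl12 value was not tested.

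Motor and microtubule genes were found on both sides of 0. Of 12 tested dynein genes and partners 6 were higher and 6 lower at P5, with a median log2 ratio of -0.03 and a range of -0.38 to 1.82. Ywhae, whose protein protects phosphorylated Ndel1, was the most abundant at 1828 and 1599 FPKM, and Pafah1b3, which encodes a catalytic partner of Lis1, was at 103 and 92.5. Of the microtubule genes, Tuba1a had 128 and 132 FPKM and the doublecortin relative Dclk1 69.0 and 76.0. Doublecortin itself, Dcx, had 73.0 and 51.0 FPKM but carried the status FAIL and was not tested. The kinase gene Cdk5, whose product phosphorylates Ndel1, was at 15.2 and 20.2 FPKM, and its activator gene Cdk5r1 at 47.7 and 23.7 (log2 ratio -1.01, SE 0.90).

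Genes acting with or on the Rnd proteins complete the list. Arhgap5, which encodes a GTPase-activating protein, was at 26.6 and 29.8 FPKM, and the RhoA effector gene Rock1 at 26.6 and 23.6. Zbtb18, a transcription factor gene whose product represses Rnd2, had 48.2 and 21.8 FPKM (log2 ratio -1.14, SE 1.02), and Nr2f1 had 37.8 and 33.2. Neither Zbtb18 nor Nr2f1 had an unadjusted p under 0.05. Neurog2, which activates Rnd2, was at 0.0857 and 0.443 FPKM and was not tested.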

How the data were processed

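RNA sequencing of sorted upper-layer neurons, 3 samples at P3 and 3 at P5, was analysed from 1 deposited table. Per the submitters' processing notes, TopHat, Cuffdiff 2.02 and the mouse build mm9 were used; the gene annotation is not given in the sources used here. Per the file headers, the authors gave 1 pooled FPKM per gene and age, a log2 ratio with its test statistic, and the p-value with its adjusted q-value. The log2 ratio and statistic are treated as a score, because the deposited column holds placeholders where 1 age is at 0. Log2 ratios were recomputed from the FPKM. The main test is the authors' own, for rows of status OK (12865 of 22544); the deposited p-value equalled the normal tail of the statistic to within 2.8e-06, which allows an SE to be derived. Intervals use 1.96 SE, and errors of paired genes were taken as independent. Whether the replicates came from separate animals is not stated beyond "biological".

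The members and gene lists were chosen with earlier results of these data known. The genes named were all 9 members, the 2 most abundant genes of each pathway role, 10 fixed partners and the exceptions stated. Fabp7, Rgs5, Npy and the family members were chosen after their values were seen. Some genes that this rule names are not reported here. Older symbols (Pvrl1, Mllt4, Cxcr7, Grlf1, Zfp238) were matched to current ones. Deposited starts were read as counted from 0: among 20179 genes also in GENCODE M21, the span equalled the gene length in 2640 and was 1 short in 438. Alternatives were other thresholds, pseudocounts of 1 and 0.1 FPKM, a minimum of 1 FPKM, centring, upper-quartile scaling, the mean, and a statistic divided by its robust spread. The scripts were checked on simulated data. Python 3.11.15, pandas 2.3.3 and scipy 1.17.1 were used.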

Additional observations from a re-analysis of the deposited data

How the results depend on the processing

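With an unadjusted p under 0.05 in place of q = 0.05, the count of called members was 1 (Cxcr4) in place of 0; it was 0 at q = 0.1, with the statistic divided by its robust spread, and with only rows of at least 1 FPKM at either age. For the 63 other pathway genes the count was 0 under each of these. After centring on the median of tested genes above 0 at both ages, a shift of 0.13, the members' median log2 ratio was 0.02. The mean of the members' ratios without centring was -0.26, of opposite sign to their median of 0.15. Counts of members past a log2 ratio of 1 in size hang on the scale: Lrp8 was at -1.09 after centring and Ndel1 at 1.02 after upper-quartile scaling. Under the pseudocounts, centring and scaling no member changed sign in 36 recomputed values; Cxcr4 lay between -2.67 and -2.37, and Nde1 and Rnd2 were each at 0.02 after centring. Differences between paired genes kept their sign with a pseudocount of 1 FPKM, and their intervals held 0 with the narrower errors. No paired analysis was possible because the table gives 1 pooled value per age, and for the same reason leaving out each replicate was not run. Depth is unknown, so no limit from counts can be given for low genes.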

Other observations

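Relatives of the 9 genes were looked up by symbol, after the values of the members had been seen. Of the LDL receptor family without Vldlr and Lrp8, 5 of 10 tested genes were higher and 5 lower at P5, with a median log2 ratio of 0.02. Lrp4, a receptor of synapse formation, was the most abundant at 71.2 FPKM at P3 and 99.9 at P5. Lrp11 was at 11.2 and 16.7 FPKM and Lrp12 at 10.8 and 7.92. Chemokine receptors other than Cxcr4 and Ackr3 were scarce: of 18 rows without these genes, 12 were listed at 0 at both ages and 2 had been tested. The tested receptors were Ccr1 at 5.00 and 4.01 FPKM and the microglial Cx3cr1 at 0.177 and 5.36.

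Among adaptors with a domain like that of Dab1, 4 of 7 tested genes were higher and 3 lower at P5, with a median log2 ratio of 0.19. Dok5 was at 119 and 78.9 FPKM and Numb at 3.45 and 1.44. Dok4 was at 17.4 and 30.4 FPKM and Numbl at 0.374 and 1.69. Dab2, the relative of Dab1 that is known from macrophages, was at 0.291 and 10.3 FPKM (log2 ratio 5.15, SE 2.59), with p = 0.047 in the authors' deposited table, beside the higher microglial markers at P5. Of the 7 tested adaptors, 1 was higher at an unadjusted p under 0.05, against 0.591% of all tested genes. The part of microglia in the Dab2 value was not tested.

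By distance between the log2 FPKM of both ages, which rests on 2 values per gene, the genes nearest to Cxcr4 among 9663 candidates were 3110045C21Rik (37.1 and 6.35 FPKM), Hist1h1b (42.7 and 7.66) and Tmsb15b2 (30 and 6.97). Those nearest to Ndel1 were Fxr1 (6.68 and 13.0 FPKM), Maoa (6.68 and 13.1) and Syn1 (6.67 and 12.8). The distances were 0.02, 0.32 and 0.33 log2 units for Cxcr4 and 0.02, 0.02 and 0.04 for Ndel1.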
